A study of Mus musculus with 2 samples.

Results

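Cluster H is the group of cells that the deposited annotation of this liver data set marks with the letter H, and its leading genes are those of hepatocytes. It held 84 of the 15835 annotated cells, 18 of 8166 in the c-Maf KO library (0.220%, 95% exact binomial interval 0.131 to 0.348%) and 66 of 7669 in the control library (0.861%, 0.666 to 1.09%). The members were taken by their annotation and matched to the count tables by cell barcode. No barcode was shared between the c-Maf KO and the control cells of H.

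Both libraries were made from mouse liver at postnatal day 15, by droplet single-cell RNA sequencing of endothelial and hematopoietic cells isolated by fluorescence-activated sorting. The c-Maf KO library came from mice described as c-Maf KO in endothelial cells and the control library from their control mice, and each library pooled 1 male and 1 female. The labels name neither the strain, nor the driver of the deletion, nor the deleted part of Maf, and hepatocytes were not among the cells named as sorted. With 1 library per group and no replicate, no test was made: differences are those of a pair of libraries, and the 95% intervals reflect counting error alone.

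Maf, the targeted gene, was low in KOS_1, a cluster of 1356 c-Maf KO endothelial cells, at 9.32 CPM (7.79 to 11.1). CPM scales the unique molecular identifiers (UMIs, one for each captured transcript) of a gene to the summed UMIs of the same cells. In H itself Maf was at 1370 CPM (1150 to 1619) in c-Maf KO and 1536 CPM (1388 to 1696) in control cells, a log2 ratio of -0.16 (-0.46 to 0.12).

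Hepatocytes are the main parenchymal cells of the liver. They secrete most plasma proteins and lipoproteins, run the urea cycle and make glucose, and their tasks differ along the lobule: periportal hepatocytes favour gluconeogenesis and urea synthesis, pericentral hepatocytes make glutamine and carry many cytochrome P450 enzymes. They lie against the sinusoids, fenestrated capillaries whose endothelial cells share the sort with the blood cells measured here.

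The 15 genes with the highest ratio of H over all other annotated cells, among genes with at least 50 UMIs in H, were mostly enzymes and secreted proteins of hepatocytes. Otc, a urea cycle enzyme, stood at 144 CPM in H against 0.849 CPM in all other cells, a ratio of 169. The 4 markers of H were among the 15: Bhmt, a methionine cycle enzyme, with a ratio of 168, Serpina1e, an alpha-1-antitrypsin, with 149, Ttr, the thyroxine carrier transthyretin, with 134, and Fabp1, the liver fatty acid binding protein, with 129. Because H was clustered on these counts, the ratios describe the cluster and are no test of it.

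The start of Bhmt, the marker with the highest ratio, is shown because a motif bound by liver nuclear receptors lies in it. The 250 bases before the start, from RefSeq on GRCm38.p6, lie on chromosome 13 at chr13:93637759-93638008 on the minus strand and run 5′ to 3′ on the gene's strand. The capitals mark CAAAGGTCA, a motif of the HNF4 type, 50 bases before the start.
Bhmt: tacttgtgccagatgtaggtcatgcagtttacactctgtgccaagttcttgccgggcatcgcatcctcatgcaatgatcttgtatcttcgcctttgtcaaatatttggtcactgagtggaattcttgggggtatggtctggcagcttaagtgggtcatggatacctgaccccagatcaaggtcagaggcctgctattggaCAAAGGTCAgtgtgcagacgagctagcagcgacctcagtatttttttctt
On either strand, CAAAGGTCA was found in 1 of the 12 leading genes with a sequence searched, and in 0.426% of all 32851 promoter windows of 250 bases. A match describes letters, not binding.

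Serpina1e belongs to a family of 5 near-identical genes on chromosome 12. The last 300 bases of the GENCODE M21 transcripts, near where droplet reads are taken, were identical at 83.0 to 96.3% of bases between family members in alignments without gaps. The labels do not say how such reads were divided, so the counts of single Serpina1 genes are uncertain.

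The cells of H were of very different depth and content. In the c-Maf KO library they held 514 to 11982 UMIs, with a median of 4917.5, and in the control library 502 to 16816, with a median of 1319. The medians over all annotated cells were 4504 and 4786 UMIs. Mitochondrially encoded UMIs had a median of 6.28% of a cell's UMIs in c-Maf KO H cells and 8.73% in control H cells, against 5.69% and 6.62% over all annotated cells of the same libraries.

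A list of 188 hepatocyte genes took from 0.351 to 17.4% of a cell's UMIs in c-Maf KO H cells (median 0.749%) and from 0.347 to 24.7% in control H cells (median 6.05%). A list of 39 endothelial genes took from 0 to 6.64% (median 2.40%) in c-Maf KO cells and from 0 to 4.66% (median 0.181%) in control cells. Cells high in one list were mostly low in the other. Across cells of 1 library, Spearman's rho between the shares was -0.41 in 18 c-Maf KO cells and -0.76 in 66 control cells, and rho between the hepatocyte share and the UMIs of the cell was -0.82 and -0.69. These values are a description, since both shares have the cell's total as denominator.

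**Figure D1:**
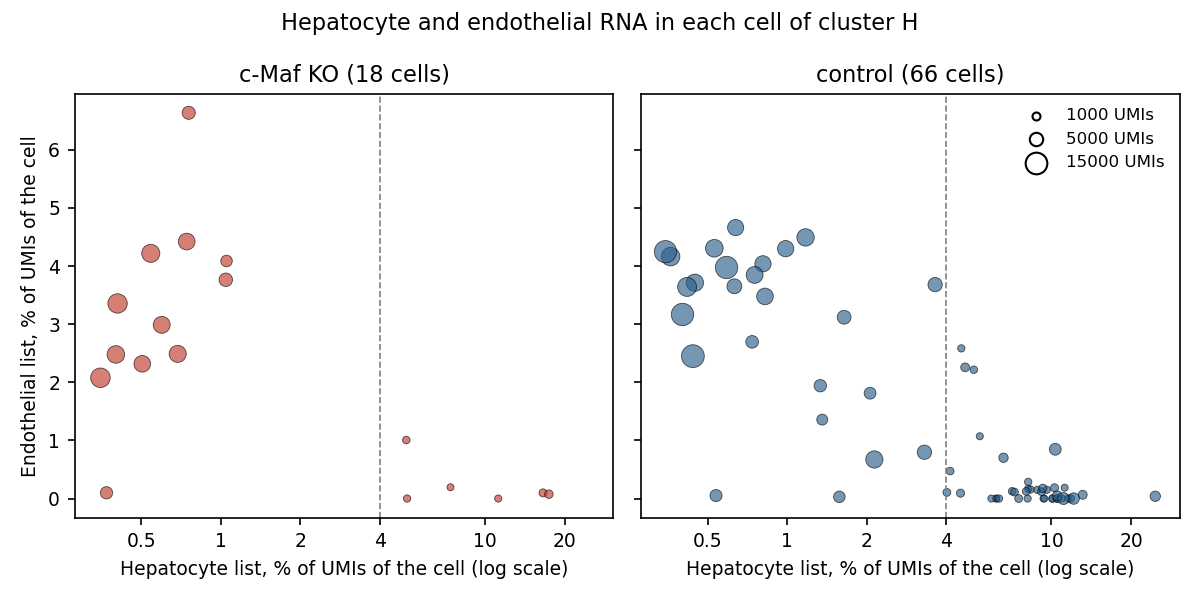
Share of each cell's UMIs in the hepatocyte list (x axis, percent, log scale) and in the endothelial list (y axis, percent), 1 point per cell of H, with c-Maf KO cells on the left, control cells on the right and point area growing with the UMIs of the cell. The dashed line marks 4%, and cells right of it are small points near the bottom, while most cells left of it are large points above 1% endothelial UMIs.

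H was therefore described in 2 ranges, divided after these values were seen at 4% hepatocyte UMIs. Above the line lay 47 hepatocyte-rich cells, 6 c-Maf KO and 41 control, and below it 37 hepatocyte-poor cells, 12 c-Maf KO and 25 control. The nearest cells were at 3.31% and 3.63% below and at 4.02% and 4.14% above the line. The ranges are no cell types. All annotated cells at or above 4% were in H, 6 of 6 c-Maf KO and 41 of 41 control cells. The highest share outside H was 3.71% in a c-Maf KO cell and 3.82% in a control cell, both of the cluster named Neutrophils. Summed over Neutrophils, the list took 1.59% of UMIs in the c-Maf KO and 1.68% in the control library. A set of 13 hepatocyte markers took only 0.00887% and 0.0136% there, against 4.86% and 4.16% in hepatocyte-rich cells. The share in Neutrophils thus lay almost wholly outside these markers, and its source was not tested.

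Hepatocyte-rich cells were shallow and almost free of endothelial RNA. They held 502 to 3711 UMIs, with a median of 783, and 42 of the 47 held under 2000. The endothelial list took 0 to 1.01% of UMIs in c-Maf KO hepatocyte-rich cells (median 0.0862%) and 0 to 2.58% in control ones (median 0.0924%). There was no endothelial UMI in 2 of 6 c-Maf KO and 17 of 41 control hepatocyte-rich cells, and 4 of 6 and 26 of 41 were at or below the 95th percentile of B3, a B lineage cluster taken as background (0.121% and 0.135%). A share of 1% or more was seen in 1 of 6 and 4 of 41. UMIs of at least 3 of the 4 markers were present in 6 of 6 c-Maf KO and 37 of 41 control hepatocyte-rich cells.

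Hepatocyte-poor cells were deep and mostly rich in endothelial RNA. They held 2946 to 16816 UMIs, with a median of 8367, and none held under 2000. The endothelial list took a median of 3.17% of UMIs (0.0985 to 6.64%) in the 12 c-Maf KO cells and 3.64% (0.0292 to 4.66%) in the 25 control cells. In the c-Maf KO library 11 of 12 were at or above the 5th percentile of the endothelial clusters S (1.01%) and KOS_1 (1.24%), and in the control library 21 of 25 were at or above that of S (1.33%) and 14 of 25 above that of S2 (3.47%). The 5 cells under 1% endothelial UMIs held at least 0.5% UMIs of B lineage genes (4 cells) or Kupffer genes (1 cell). Hepatocyte-poor cells still carried more hepatocyte RNA than most cells of those clusters. The summed UMIs of 13 hepatocyte markers were above the 95th percentile of KOS_1 in 11 of 12 c-Maf KO cells and above that of S2 in 23 of 25 control cells, but above that of S, whose cells had a median of 2909 c-Maf KO and 1864.5 control UMIs, in 4 of 12 and 13 of 25. These markers took part in the clustering, so their excess in H is a description.

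Most UMIs of H lay in the hepatocyte-poor cells, which held 95080 of 100017 UMIs in the c-Maf KO library and 210845 of 255219 in the control library. Summed over all cells, the hepatocyte list took 1.12% of UMIs in c-Maf KO H (1.06 to 1.19%) and 2.47% in control H (2.41 to 2.53%). Within hepatocyte-rich cells the shares were 11.8% (10.9 to 12.7%) in c-Maf KO and 9.88% (9.61 to 10.2%) in control cells. Within hepatocyte-poor cells they were 0.569% (0.522 to 0.619%) and 0.907% (0.867 to 0.948%). In endothelial clusters the same list took 0.330% in S and 0.300% in KOS_1 of the c-Maf KO library, and 0.329% in S and 0.314% in S2 of the control library. A part of the hepatocyte share in hepatocyte-poor cells is thus also found in plain endothelial clusters. The ranges were divided by this same share, so its values within them describe the cells on each side and give no direction between the libraries, and single hepatocyte genes, which entered the share, are given within the ranges as a description too. The deepest c-Maf KO hepatocyte-rich cell held 232 of the 581 hepatocyte UMIs of its range, and without it the share was 9.68% (8.73 to 10.7%). Summed endothelial shares were 3.02% in c-Maf KO and 2.78% in control H, 0.223% and 0.320% in hepatocyte-rich cells, and 3.16% and 3.30% in hepatocyte-poor cells.

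RNA of Fabp1 was seen in every other cluster examined, from 2.39 CPM in c-Maf KO and 2.97 CPM in control cells upward. The levels of the 4 markers in the 20 c-Maf KO and 18 control clusters with at least 50 cells reached at most 62.6 CPM in the c-Maf KO library and 82.9 CPM in the control library, both for Fabp1 in S. H exceeded the highest other cluster by 11.2-fold to 59.2-fold for the 4 markers. With each cell thinned to 561 UMIs, at least 1 of the 4 markers was seen in 64.7% of 17 c-Maf KO and 81.0% of 58 control H cells, after 1 and 8 shallower cells were left out. In B3 cells at the same depth the shares were 1.25% of 479 and 2.29% of 831. Without thinning they were 100% in H of both libraries, and 5.85% and 13.1% in B3, at median depths of 4917.5 and 1319 UMIs in H and 3612 and 4414 in B3.

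**Figure D2:**
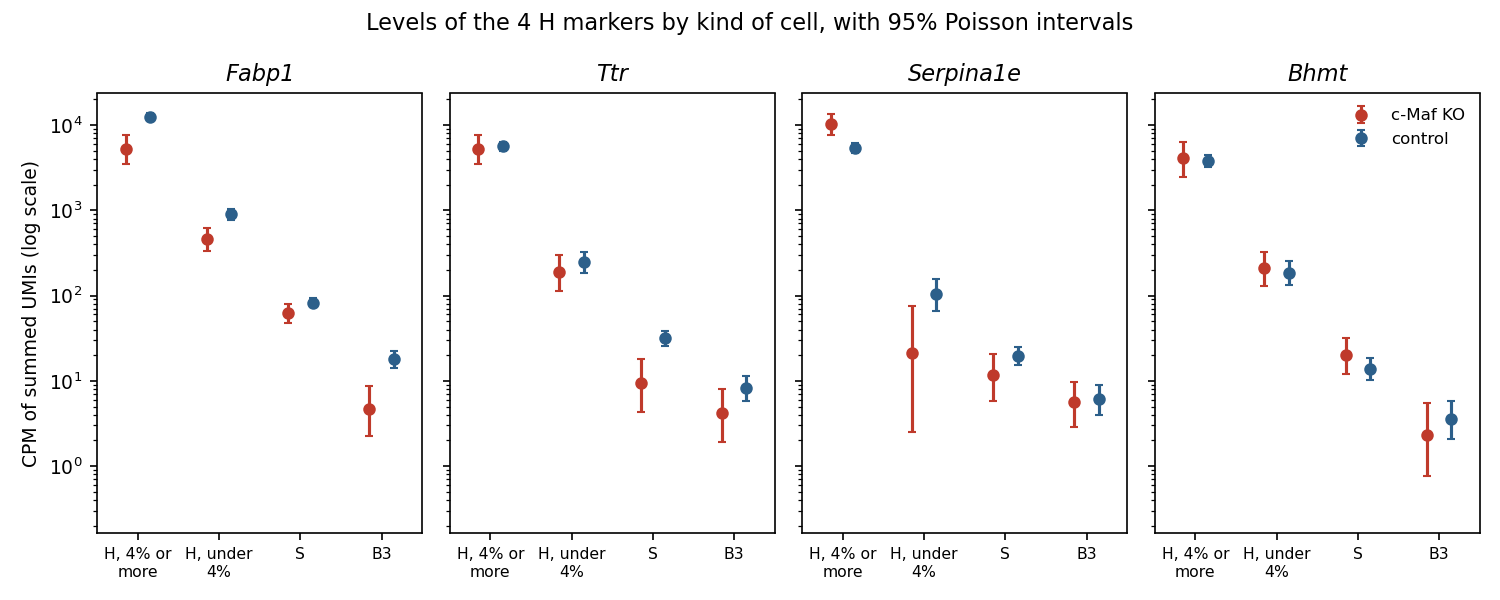
Levels of the 4 H markers in CPM (y axis, log scale) in hepatocyte-rich H cells, hepatocyte-poor H cells, cluster S and cluster B3, with c-Maf KO left of control and bars for 95% Poisson intervals. Each marker falls in steps across the 4 kinds of cell, and for Fabp1 in control cells the steps run from 12552 CPM in hepatocyte-rich cells to 901 CPM in hepatocyte-poor cells and 82.9 CPM in S.

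A gene was called higher or lower in the c-Maf KO library when its summed levels differed by at least 1.5-fold, 1 lay outside the exact interval of their ratio and there were 20 or more UMIs of it in the 2 sums. Over all cells of H, 3296 genes met the count, 156 were called higher (4.73%) and 195 lower (5.92%), and the median log2 ratio was 0.051. Of the 188 hepatocyte genes, 39 had no UMI in H, 56 met the count, 36 were called lower and 1 higher, with a median log2 ratio of -1.05. All 4 markers were called lower. Fabp1 stood at 700 CPM in c-Maf KO and 2927 CPM in control H (log2 ratio -2.05, -2.44 to -1.71), Ttr at 440 and 1183 CPM (-1.41), Bhmt at 400 and 815 CPM (-1.01) and Serpina1e at 530 and 1027 CPM (-0.94). Hepatocyte-rich cells made up 6 of 18 c-Maf KO and 41 of 66 control H cells, so these pooled ratios move with the makeup of H, and their values within each range are given next.

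Among hepatocyte-rich cells, with 4937 c-Maf KO and 44374 control UMIs, 406 genes met the count, 17 were called higher (4.19%) and 10 lower (2.46%). Of 46 hepatocyte genes that met it, 7 were called higher and 2 lower, against a median log2 ratio of 0.31 in the list and 0.08 over all genes. Fabp1 was called lower here too: the 6 c-Maf KO cells held 1, 2, 3, 3, 11 and 6 UMIs of it in order of depth, and the 41 control cells 2 to 56 with a median of 11. Its level was 5266 CPM in c-Maf KO and 12552 CPM in control hepatocyte-rich cells (log2 ratio -1.23, -1.88 to -0.69). The cells' ranges overlapped. Ttr, at 5266 and 5634 CPM (-0.07, -0.74 to 0.49), and Bhmt, at 4051 and 3809 CPM (0.12, -0.66 to 0.76), were called neither way.

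The second hepatocyte gene called lower was Apoa1, the main protein of high-density lipoprotein, with 1 UMI in the 6 c-Maf KO cells and 122 in the 41 control cells, 69 of them in 1 cell. It stood at 203 CPM in c-Maf KO and 2749 CPM in control hepatocyte-rich cells (log2 ratio -3.18, -9.08 to -1.26), and at -2.07 without that control cell it was still called. Mt1, a metallothionein that binds zinc and copper, had 2 UMIs in c-Maf KO and 259 in control hepatocyte-rich cells, present in 2 of 6 and 28 of 41 cells with at most 1 and 26 UMIs per cell. Its levels were 405 and 5837 CPM (-3.53, -6.90 to -1.98). In hepatocyte-poor cells Mt1 stood at 505 CPM in c-Maf KO and 721 CPM in control cells. Gstz1, an enzyme of tyrosine breakdown, had 0 UMIs in c-Maf KO and 37 in control hepatocyte-rich cells, at least 1.37-fold lower when 3 counts over the c-Maf KO cells are taken as the floor. Without the control cell with most Gstz1, 5 of the 37 UMIs, the log2 ratio was -2.98, against -3.06 with it, and the gene was no longer called.

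Most calls of higher genes in c-Maf KO hepatocyte-rich cells rested on 1 cell. Serpina1e was at 10330 CPM in c-Maf KO and 5409 CPM in control cells (log2 ratio 0.94, 0.47 to 1.37), and 40 of its 51 c-Maf KO UMIs lay in the deepest cell. Apoa2, a further lipoprotein of high-density particles, was at 8507 and 3065 CPM (1.48), with 35 of 42 c-Maf KO UMIs in 1 cell. Ass1, the urea cycle enzyme that makes argininosuccinate, was at 5469 and 2186 CPM (1.34), with 15 of 27 in 1 cell, and Gnmt, which methylates glycine, at 3848 and 1285 CPM (1.61), with 14 of 19. Alb, serum albumin, was at 5671 and 3380 CPM (0.77), with 18 of 28. Without the c-Maf KO cell that held most UMIs of the gene, 1 of the 17 higher calls was kept, that of Cdo1, a cysteine dioxygenase, and 9 of the 10 lower calls. Serpina1e turned to -0.76, Apoa2 to -0.68 and Alb to -0.22 on the log2 scale. Leaving out that c-Maf KO cell mostly moves ratios down, so it says little of the lower calls. Without the control cell that held most UMIs of the gene, 8 of the 10 lower calls and 16 of the 17 higher calls were kept. Malat1, called lower at -3.11, then stood at -0.72 and was not called. The 10 lower calls also held the ribosomal protein genes Rps27, Rpl37a, Rps16 and Rpl19, at -1.69 to -1.30, and Fabp5 at -1.61. Each of these was kept without the top cell of either library.

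**Figure D3:**
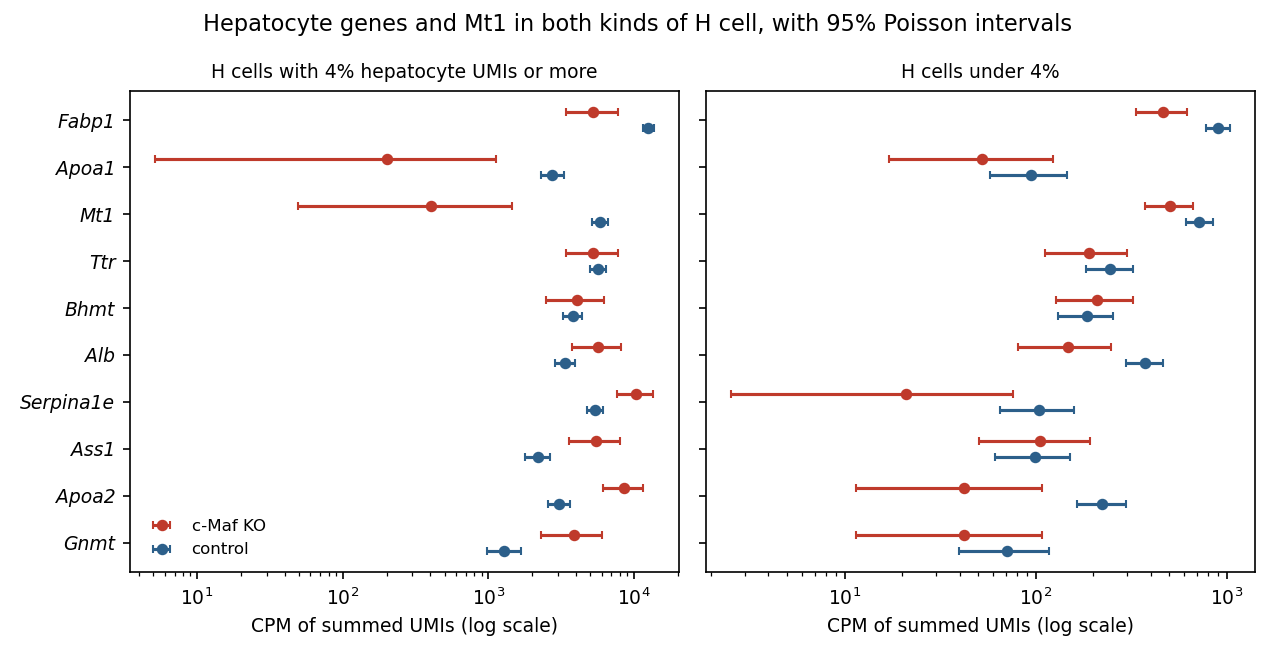
Levels in CPM (x axis, log scale) of 9 hepatocyte genes and Mt1 in hepatocyte-rich cells (left) and hepatocyte-poor cells (right), with c-Maf KO above control and bars for 95% Poisson intervals. Fabp1, Apoa1 and Mt1 lie lower in c-Maf KO hepatocyte-rich cells, and Ttr and Bhmt have overlapping intervals in both panels.

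In hepatocyte-poor cells 2946 genes met the count, 106 were called higher (3.6%) and 135 lower (4.58%), with a median log2 ratio of 0.02. Of 32 hepatocyte genes that met it, 12 were called lower and 1 higher, with a median of -0.74. Fabp1 was at 463 CPM in c-Maf KO and 901 CPM in control cells (log2 ratio -0.95, -1.47 to -0.48), Alb at 147 and 375 CPM (-1.31), Apoa2 at 42.1 and 223 CPM (-2.25) and Serpina1e at 21.0 and 104 CPM (-2.02). Ttr, at 189 and 247 CPM, and Bhmt, at 210 and 185 CPM, were called neither way. The higher gene was Mest, an imprinted gene that endothelial cells of this data set also express. Medians were also taken over the clusters other than H, 20 in c-Maf KO and 18 in control, which were not the same set. These median levels were lower in c-Maf KO for the other genes named here. They were 6.58 CPM in c-Maf KO and 20.2 CPM in control for Fabp1, 12.6 and 21.8 for Alb and 4.16 and 5.29 for Apoa2. For Serpina1e they were 4.20 and 5.39, for Ttr 4.02 and 8.10, and for Bhmt 2.25 and 4.02. In S, a cluster of both libraries, Bhmt was higher in c-Maf KO (20.1 CPM) than in control (13.8 CPM). Apoa2 was near equal there, at 24.4 and 24.9 CPM, and Fabp1, Alb, Serpina1e and Ttr were lower in c-Maf KO. The part of such RNA in the differences between hepatocyte-poor cells was not tested.

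The plasma protein genes were the largest group. Of 35, 13 met the count over all H cells and 12 were called lower, against 4 higher and none lower of 12 in hepatocyte-rich cells, 3 of them of the Serpina1 family. Over all genes, 5.92% were called lower in all H cells, and 4.19% higher and 2.46% lower in hepatocyte-rich cells. These shares stand beside the counts of the gene lists that follow as well. Of 16 lipoprotein and lipid carrier genes 9 met the count and 5 were called lower. Apoc1, an apolipoprotein of very-low-density particles, had 94 UMIs in c-Maf KO and 510 in control H cells. In hepatocyte-rich cells it stood at 12558 and 8519 CPM and was called neither way. Apoe, which Kupffer and other cells also make, stood at 1215 CPM in c-Maf KO and 1420 CPM in control hepatocyte-rich cells, and at 3429 and 4103 CPM in hepatocyte-poor cells, and it was left out of the hepatocyte list.

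Of 22 genes of the urea cycle and amino acid metabolism none was without a UMI in H, 13 met the count and 5 were called lower. Arg1, the arginase that releases urea, stood at 2228 CPM in c-Maf KO and 1555 CPM in control hepatocyte-rich cells, and Mat1a, which makes S-adenosylmethionine, at 2026 and 1397 CPM. Cps1, the mitochondrial enzyme that opens the urea cycle, had 3 UMIs in c-Maf KO and 9 in control H cells. Of 11 genes of glucose, fructose and glycogen metabolism 4 met the count and all were called lower over all cells and none in hepatocyte-rich cells. Among them Fbp1 and Pck1, enzymes of glucose synthesis, stood at 3038 and 1418 CPM in c-Maf KO hepatocyte-rich cells, against 2366 and 992 CPM in control ones. Khk, the ketohexokinase that opens fructose breakdown, stood at 203 CPM in c-Maf KO and 451 CPM in control hepatocyte-rich cells.

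Of 12 genes of fatty acid oxidation and ketogenesis 7 met the count and 4 were called lower over all cells, and none of 4 in hepatocyte-rich cells. Acaa2, a mitochondrial thiolase, stood at 1418 CPM in c-Maf KO and 1893 CPM in control hepatocyte-rich cells. Of 9 redox and metal binding genes, Fth1 and Ftl1, the ferritin chains, stood at 7292 and 7099 CPM and at 8102 and 5904 CPM in c-Maf KO and control hepatocyte-rich cells, and neither was called there.

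Genes of drug metabolism were unevenly seen. The 24 cytochrome P450 and conjugation genes held 41 UMIs in 16 of 18 c-Maf KO cells and 239 UMIs in 59 of 66 control cells of H, 0.344% of UMIs in c-Maf KO and 0.383% in control hepatocyte-rich cells, but 11 of the 24 had no UMI in any H cell, among them Cyp2f2 and Cyp1a2. Cyp2e1 had 1 UMI in c-Maf KO and 2 in control H cells, and Cyp3a11, also a P450 enzyme, 1 and 2. Gsta3, a glutathione transferase, was the most frequent member, with 15 UMIs in c-Maf KO and 77 in control H cells, and Adh1, the alcohol dehydrogenase, had 6 and 51. Of 12 genes of bile acid synthesis and transport 6 had no UMI and none met the count, with 1 UMI in c-Maf KO and 19 in control H cells in all. Hnf4a, a nuclear receptor that defines hepatocytes, had 0 UMIs in c-Maf KO and 7 in control H cells. At a sum of 4937 UMIs, a gene without a UMI in c-Maf KO hepatocyte-rich cells is compatible with up to 608 CPM, 3 counts of that total, so absence there was not detectable at this depth.

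Igf1, an endocrine product of hepatocytes, had 3 UMIs in c-Maf KO and 17 in control H cells, and the adult male genes Mup3, Mup20 and Cyp2d9 had none. H19, an imprinted RNA of the fetal liver, had 1 UMI in c-Maf KO and 48 in control hepatocyte-rich cells, and 6 and 35 in hepatocyte-poor cells, and Afp, alpha-fetoprotein, had 0 and 1 in all of H. Of the acute phase genes Hp, haptoglobin, had 6 and 34 UMIs and Saa1, a serum amyloid, 0 and 16. Such raw counts come from 100017 c-Maf KO and 255219 control UMIs in H, and from 4937 and 44374 in hepatocyte-rich cells.

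Zonation genes of both lobule ends were present, with more UMIs of the periportal list. A list of 22 pericentral genes held 36 UMIs in c-Maf KO and 195 in control H cells, and a list of 20 periportal genes 145 and 758, so that pericentral UMIs were 19.9% (14.3 to 26.5%) and 20.5% (17.9 to 23.2%) of the 2 lists. Among hepatocyte-rich cells there were 6 pericentral and 95 periportal UMIs in c-Maf KO cells (5.94%, 2.21 to 12.5%) and 111 and 550 in control cells (16.8%, 14.0 to 19.9%). Single cells weighed on both shares. Without the c-Maf KO cell that held 52 of the 95 periportal UMIs the c-Maf KO share was 10.4% (3.47 to 22.7%), and without the control cell that held 36 of the 111 pericentral UMIs the control share was 12.1% (9.60 to 14.9%). Hepatocyte-poor cells had 37.5% (26.9 to 49.0%) and 28.8% (23.6 to 34.3%). More periportal than pericentral UMIs were found in 43 of the 47 hepatocyte-rich cells, all 6 c-Maf KO and 37 of 41 control ones.

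The periportal UMIs of hepatocyte-rich cells lay mostly in Alb, Ass1, Fbp1, Arg1, Pck1 and Asl, and Alb is made by hepatocytes of all zones. Alb held 28 of the 95 periportal UMIs of c-Maf KO and 150 of the 550 of control hepatocyte-rich cells. Without Alb the pericentral share over all H cells was 25.9% in the c-Maf KO and 26.9% in the control library. The genes of the lists differ in abundance, so list totals alone do not place the cells in a zone. Sds, a periportal serine dehydratase, had 3 UMIs in c-Maf KO and 21 in control hepatocyte-rich cells. The pericentral genes with most UMIs were Glul, the glutamine synthetase, Rgn, which acts in ascorbate synthesis, and Gstm1, a glutathione transferase, with 1 and 20, 4 and 51, and 1 and 30 UMIs in c-Maf KO and control hepatocyte-rich cells. Oat, the ornithine aminotransferase, had 0 and 2. These are raw counts out of 4937 c-Maf KO and 44374 control UMIs, so they do not compare levels. Of the pericentral list 10 of 22 genes had no UMI in H, and of 5 midlobular genes only Igfbp2, an insulin-like growth factor binding protein, had any, with 0 in c-Maf KO and 11 in control H cells. Glul stood at 168 CPM in c-Maf KO and 190 CPM in control hepatocyte-poor cells, with 9 of its 40 control UMIs in 1 cell. The pericentral list took 0.0316% of UMIs in c-Maf KO and 0.0398% in control hepatocyte-poor cells. In the endothelial cluster S it took 0.0306% and 0.0284%, so in hepatocyte-poor cells the lists do not speak of hepatocyte zones alone.

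One control cell of 2129 UMIs stood apart, with 36 pericentral and 3 periportal UMIs and no UMI of Alb. It held 11 of the 20 Glul UMIs of control hepatocyte-rich cells, 10 of Rgn, 9 of Gstm1, 2 of 2 of Oat, 1 of Axin2 and 1 of Cyp7a1, a target of Wnt signals and the rate-limiting enzyme of bile acid synthesis, both pericentral. It also held 18 UMIs of Fabp1, 16 of Ttr and 14 of Apoa2. Only 3 hepatocyte-rich cells held more pericentral than periportal UMIs, all control cells. A second control cell, of 5898 UMIs and hepatocyte-poor, held 16 of each list, but 10 of its periportal UMIs were of Ctsc, a protease that Kupffer cells also make, and 2.95% of its UMIs were of Kupffer genes.

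**Figure D4:**
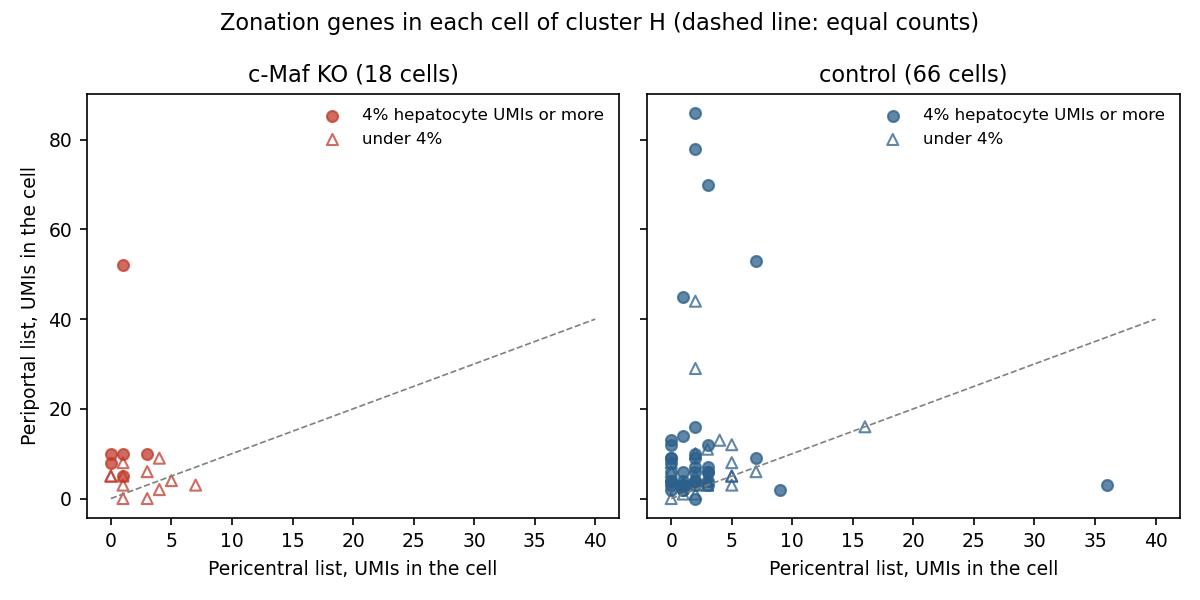
UMIs of the pericentral list (x axis) and of the periportal list (y axis) in each cell of H, c-Maf KO on the left and control on the right, with filled circles for hepatocyte-rich and open triangles for hepatocyte-poor cells. Most points lie above the dashed line of equal counts, up to 86 periportal UMIs, and 1 control cell lies at 36 pericentral and 3 periportal UMIs.

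The 137 c-Maf KO and 392 control UMIs of Maf in H lay almost wholly in hepatocyte-poor cells. In hepatocyte-rich cells Maf was nearly absent, with 0 UMIs in 6 c-Maf KO and 5 in 41 control cells. Of the 12 c-Maf KO hepatocyte-poor cells 10 held it, with 6, 0, 9, 10, 1, 23, 23, 3, 7, 21, 34 and 0 UMIs in order of depth. Cells of 8325, 8878 and 11982 UMIs with 1, 3 and 0 of Maf stood below the others of like depth, and the shallower cell without Maf, of 4059 UMIs, held 1.08% B lineage UMIs. The 25 control hepatocyte-poor cells held 0 to 39 with a median of 12, and the ranges overlapped. The level was 1441 CPM (1210 to 1703) in c-Maf KO and 1835 CPM (1657 to 2028) in control hepatocyte-poor cells. The log2 ratio of -0.35 (-0.64 to -0.06) was not called. Transcript left outside the deleted part would still be counted.

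Among c-Maf KO endothelial clusters, hepatocyte-poor H cells had the Maf level of S (1457 CPM, 1381 to 1536, in 223 cells) and lay far above the 9.32 CPM of KOS_1. Sinusoidal genes, chosen here after their values were seen, differed in this: some lay near their level in S and others did not. Dnase1l3, an extracellular DNase, stood at 1188 CPM in c-Maf KO hepatocyte-poor cells, against 1425 CPM in c-Maf KO S and 8.82 CPM in KOS_1. Fcgr2b, the inhibitory Fc receptor of sinusoids, stood at 1210 CPM, against 1165 and 276 CPM, and Clec4g, a sinusoidal lectin, at 1841 CPM, against 1714 and 603 CPM. Stab1, a scavenger receptor of sinusoids, was higher than in either cluster, at 1031 CPM (837 to 1256), against 692 and 326 CPM. Gpihbp1 was lower, at 1199 CPM (989 to 1440), against 1691 and 1517 CPM, and Ednrb too, at 116 CPM (57.8 to 207), against 384 and 221 CPM. In c-Maf KO S2, Stab1, Gpihbp1 and Ednrb stood at 809, 1746 and 535 CPM. In KOS_3, a further c-Maf KO endothelial cluster of 238 cells, they stood at 571, 1176 and 183 CPM, the last 2 within the intervals of hepatocyte-poor cells. All 12 c-Maf KO hepatocyte-poor cells held Xist, the RNA of the inactive X chromosome, and 1 of them also a UMI of a list of 4 Y-linked genes. In c-Maf KO S and S2 no cell held a Y-linked UMI without Xist, against 208 of 1356 in KOS_1. In control hepatocyte-poor cells 16 of 25 held Xist alone and 2 Y-linked UMIs alone.

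**Figure D5:**
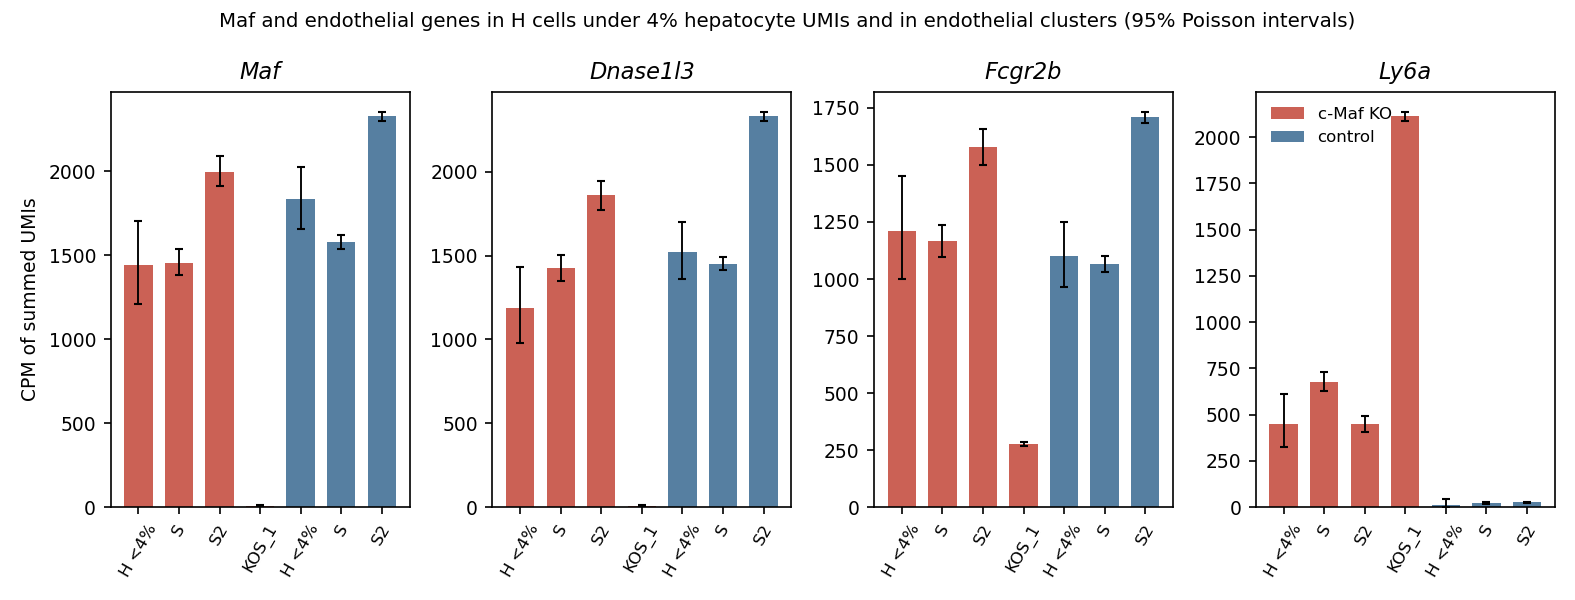
Levels in CPM (y axes, starting at 0) of Maf, Dnase1l3, Fcgr2b and Ly6a in hepatocyte-poor H cells (H <4%) and in endothelial clusters, c-Maf KO bars left of control bars, with 95% Poisson intervals. For Maf the bar of c-Maf KO hepatocyte-poor cells reaches 1441 CPM, near that of S, while KOS_1 is at 9.32 CPM.

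Of 38 endothelial genes that met the count in hepatocyte-poor cells, 2 were called higher and 5 lower, against 3.6% higher and 4.58% lower over all genes in these cells. The median log2 ratio was -0.02 in the list and 0.02 over all genes. Ehd3, a membrane trafficking protein of sinusoids, stood at 1756 CPM in c-Maf KO and 1048 CPM in control cells (log2 ratio 0.75, 0.45 to 1.04). Stab2, the hyaluronan receptor of sinusoids, stood at 726 and 1385 CPM (-0.92, -1.33 to -0.55), Gpihbp1, which anchors lipoprotein lipase, at 1199 and 2101 CPM (-0.80) and Flt4, a receptor of vascular growth factors, at 431 and 759 CPM (-0.80). The gene furthest up was Ly6a, a surface antigen of stem cells and some endothelia, with 43 UMIs in 6 c-Maf KO cells, 20 of them in 1 cell, and 3 in control hepatocyte-poor cells. Its 452 CPM in c-Maf KO hepatocyte-poor cells compare with 677 CPM in S and 2113 CPM in KOS_1 of the same library, and its 14.2 CPM in control ones with 23.7 CPM in control S. B3, a B lineage cluster, also held Ly6a, at 298 CPM in the c-Maf KO and 253 CPM in the control library. Mecom, a zinc finger transcription factor, had 18 c-Maf KO and 3 control UMIs, and Mest was at 452 and 285 CPM (0.67, 0.07 to 1.26). Ednrb, the endothelin B receptor, stood at 116 and 873 CPM (-2.85, -3.94 to -2.04).

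The 10 genes furthest down over all H cells were Cxcl10, Cd74, S100a4, Marco, Cyp2d22, Il13ra1, Rora, Gstz1, Echs1 and Rbp4. Hepatocytes make several of them. Gstz1 had 1 UMI in c-Maf KO and 58 in control H cells, and Echs1, an enzyme of fatty acid oxidation, 1 and 50. Rbp4, the retinol carrier of plasma, had 2 and 68, 30 of them in 1 cell. Cyp2d22, a P450 enzyme, had 0 UMIs in c-Maf KO and 22 in control H cells, all 22 in hepatocyte-poor cells. Endothelial cells held it too, at 27.2 CPM in KOS_1 and 86.5 CPM in control S2. Il13ra1, a cytokine receptor chain, and Rora, a nuclear receptor, had 0 UMIs in c-Maf KO and 20 in control H cells each. Cd74, the invariant chain of antigen presentation, had 1 UMI in c-Maf KO and 93 in control H cells, 40 in 1 cell, and Cxcl10, an interferon-induced chemokine, 0 and 32, at least 4.18-fold lower. S100a4 had 0 and 30 UMIs, 27 in 1 cell. Of 12 Kupffer genes 6 met the count and 5 were called lower, among them Marco, a scavenger receptor, with 0 and 27 UMIs, 21 in 1 cell, and the complement genes C1qa and C1qb with 3 and 50 and 10 and 72. Of 10 B lineage genes 5 met the count and 3 were called lower, among them Cd79a, a B cell receptor chain, with 4 UMIs in 1 c-Maf KO cell and 39 in control cells, 20 in 1 cell. Over all genes, 5.92% were called lower in H. Kupffer genes made up 0.0220% of UMIs in c-Maf KO and 0.112% in control H, and B lineage genes 0.0480% and 0.0666%. Single cells held much of these sums. Of 285 control Kupffer UMIs, 174 lay in 1 cell. Of 170 control B lineage UMIs, single cells held 77, 57 and 27, and 1 cell held 44 of 48 in c-Maf KO H. Genes of 2 lists, cholangiocyte and basophil and mast cell, had no UMI in H.

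Of 10 genes of the dissociation and heat shock response 8 met the count over all H cells, with a median log2 ratio of -0.25. Of these 8, 3 were called lower and none higher, against 5.92% and 4.73% over all genes. The 3 were the early response genes Fos, Fosb and Junb, while Jun, Egr1, Hspa1a, Hspa1b and Hsp90aa1 were called neither way. Fos stood at 179 CPM in c-Maf KO and 640 CPM in control hepatocyte-poor cells (log2 ratio -1.80, -2.66 to -1.11), and no hepatocyte-rich cell of either library held a UMI of it. Fos was at 127 CPM in c-Maf KO and 133 CPM in control cells of S, and at 151 and 395 CPM in S2, where it was also lower in the c-Maf KO library. Junb stood at 179 CPM in c-Maf KO and 574 CPM in control hepatocyte-poor cells (-1.65), at 144 and 148 CPM in S, and at 182 and 371 CPM in S2. Other c-Maf KO endothelial clusters varied, with Fos at 323 CPM and Junb at 249 CPM in KOS_1, and 66.9 and 75.6 CPM in KOS_3. Jun was at 1188 CPM in c-Maf KO and 996 CPM in control hepatocyte-poor cells. Krt18, an intermediate filament of simple epithelia including hepatocytes, had 1 c-Maf KO and 23 control UMIs in hepatocyte-rich cells, out of 4937 and 44374. The part of these genes, of depth and of the makeup of H in the other differences was not tested, and library and genotype cannot be told apart.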

How the data were processed

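The authors deposited whole UMI counts per gene and barcode for each library (32285 genes) and an annotation with cluster names and the percent of mitochondrial UMIs, per the file headers. The submitters' processing notes name Cell Ranger 4.0.0, FastQC 0.11.3, the build mm10 and Seurat 3.2.3, without parameters. The annotation's UMI counts differed from the table sums by at most 22 UMIs in H.

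Cells with the cluster name H were used (100017 c-Maf KO and 255219 control UMIs). UMIs were summed over cells and scaled to CPM, with exact Poisson intervals for levels, Clopper-Pearson intervals for shares, exact conditional binomial intervals for ratios, and log2 ratios with 0.5 UMI added, using Python 3.11.15, NumPy 2.4.6 and SciPy 1.17.1. The ratio calculation was tested on simulated data. No p-value was computed.

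The members and 33 gene lists, of which 2 symbols were not in the tables, were chosen with earlier results of these data known, and the 4% line after seeing the values. Named genes are Maf, the 4 markers, the list members with most UMIs, the 15 leading genes and the 10 highest and lowest called genes, without sex-linked, predicted, mitochondrial, ribosomal, hemoglobin and immunoglobulin genes. Others (Cdo1, Gnmt, Apoa1, Ehd3, Stab2, Flt4, Ednrb, Cyp2e1, Fcgr2b, Fabp5, the ribosomal protein genes of hepatocyte-rich cells and the like) were chosen after their values were seen. Scrublet in Scanpy 1.11.5 by its automatic threshold marked 1.81% of c-Maf KO and 0.013% of control cells and had not worked in the control library, so the highest 5% of scores per library were taken as doublets in an alternative. They held 0 c-Maf KO and 1 control H cell. The tables share 25 barcodes. Some genes of the lists and a searched motif are not reported here.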

Additional observations from a re-analysis of the deposited data

Results flagged for a closer look

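Hepatocyte RNA also appeared in barcodes outside the annotation. In the control library 19 of 1369 unannotated barcodes held at least 4% hepatocyte UMIs (1.39%, 95% interval 0.838 to 2.16%), above the 0.219% that a count of 0 allows (3 of 1369). In the c-Maf KO library they were 3 of 892 (0.336%, 0.0694 to 0.980%), equal to the limit there. All of them had at least 20% mitochondrially encoded UMIs, against at most 19.9% in a cell of H, and at most 8.85% hepatocyte UMIs in the c-Maf KO and 9.62% in the control library. High mitochondrial shares were not particular to them, as all unannotated barcodes had medians of 24.1% in the c-Maf KO and 25.3% in the control library. Whether the 19 control and 3 c-Maf KO barcodes are of the same kind as the 47 hepatocyte-rich cells was not tested.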

How the results depend on the processing

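The results were recomputed under 70 alternatives, of which 30 stayed close and 40 moved; the cause was not tested except where fewer genes or cells explain a count by construction. Genes called higher in c-Maf KO H (156) numbered 10 with cells thinned to 561 UMIs (313 genes tested), 245 with a minimum of 10 UMIs, 71 with a minimum of 50, 96 at a fold of 2 and 17 in hepatocyte-rich cells. Genes called lower (195) numbered 24 when thinned, 120 with a minimum of 50 and 10 in hepatocyte-rich cells. The hepatocyte share of UMIs, 1.12% in c-Maf KO and 2.47% in control H, was 0.749% and 6.05% as the median over cells, 1.21% and 2.68% with mitochondrially encoded genes left out of the totals, 1.23% and 2.61% without the deepest cell of each library, 1.70% and 3.38% in cells with at least 3 markers, 0.863% and 1.86% without the 3 list genes with most UMIs, and 0.371% and 0.930% from the 13 markers. Without the cells marked as doublets, here that same deepest control cell, the control share was 2.61%. The endothelial share, 3.02% and 2.78%, was 2.40% and 0.181% as the median over cells and 3.25% and 3.02% without mitochondrially encoded genes, while the c-Maf KO share was 3.15% without the deepest cell and the control share 2.42% in cells with at least 3 markers. It was thus higher in c-Maf KO H in all cells, and lower in sums within each range. The pericentral share, 19.9% and 20.5%, was 5.94% and 16.8% in hepatocyte-rich and 37.5% and 28.8% in hepatocyte-poor cells, 10.8% in c-Maf KO cells with at least 3 markers, and 25% as the control median and 26.9% in control cells without Alb. H cells per endothelial cell were 0.602% and 2.24%. Without thinning at least 1 marker was seen in 100% and 100% of H and in 5.85% and 13.1% of B3 cells.

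The divisions at 4%, the 13 markers and the removal of single cells were chosen after seeing the data. No paired analysis was possible because each group had 1 library and no test was made, and for the same reason no library could be left out. Depth limits c-Maf KO hepatocyte-rich cells most, where 3 counts equal 608 CPM.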
